A study of Bos taurus and Bubalus kerabau with 6 samples.

Results

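The 4 genes described here, gene22929, gene22808, gene16231 and gene13776, are hubs, meaning genes with very many partners, in a network of 3606 genes built for a study of longissimus muscle in cattle and buffalo. They were chosen by their partner counts in this same network: at a pair score of 700 or more they hold ranks 1 to 4. Their partner counts are therefore a description and carry no test. The study sampled the long back muscle of 6 animals aged 12 months, 3 native cattle of Guangxi (Bos taurus) and 3 swamp buffalo (Bubalus kerabau), and its title concerns long non-coding RNA. The animals carry no treatment or genetic change in the labels. The gene pairs form 1 table for the whole series, with no column for an animal or a species. No value below is a level in muscle, none compares cattle with buffalo, and muscle markers could not be checked.

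In a protein association network a line between a pair of genes says that their proteins are thought to work together. Such evidence may be a physical complex, a shared pathway, genes that rise and fall together, or names that appear together in published texts. A score states how strong the evidence is, not how much protein is present. Hubs come in different kinds. Some sit inside one tight complex whose members are all linked to each other, and others touch many groups that are otherwise separate.

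Each of the 4 genes was matched to 1 cattle protein, and no other gene was matched to any of these proteins. The deposited identifiers are ENSBTAP00000022919 for gene22929, ENSBTAP00000001420 for gene22808, ENSBTAP00000011767 for gene16231 and ENSBTAP00000033015 for gene13776. The files pair none of these identifiers with a gene symbol, so the functions of the 4 genes are not given here. Scores are whole numbers from 150 to 999, and a partner is any gene listed with a hub in a pair. Pairs that hold at least 1 of the 4 genes numbered 4822, or 2.32% of all 207586 pairs. At 400 or more they numbered 1606 (4.84% of pairs), at 700 or more 668 (6.18%) and at 900 or more 241 (4.53%). These are complete counts of a table, without replicates or sampling error.

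The 4 genes lost partners in very different ways as the minimum score rose. gene22929 had 2071 partners at the deposited minimum of 150, 764 at 400, 212 at 700 and 7 at 900. It ranked first at the 3 lower minimums and 451st at 900, where 60 genes, itself included, had 7 partners. gene13776 went the other way: 947 partners at 150 gave rank 5, 161 at 400 gave rank 28, 130 at 700 gave rank 4, and 116 at 900 gave rank 1. Of the partners it had at all, 12.2% were thus still present at 900, against 0.338% for gene22929. Over the whole network 5325 of 207586 pairs scored 900 or more.

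The other hubs lay between these extremes. gene16231 had 988 partners at 150, 290 at 400, 137 at 700 and 67 at 900, and stood at ranks 4, 3, 3 and 2. gene22808 had the fewest of the 4 at 150, with 821 partners and rank 17. It then kept 396 at 400 and 192 at 700, rank 2 in both cases, and 53 at 900, rank 8. It kept 48.2% of its partners at 400, the highest share of the 4. The share was 36.9% for gene22929, 29.4% for gene16231 and 17.0% for gene13776. Over the whole network 33160 of 207586 pairs scored 400 or more, a share near that of gene13776.

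**Figure D1:**
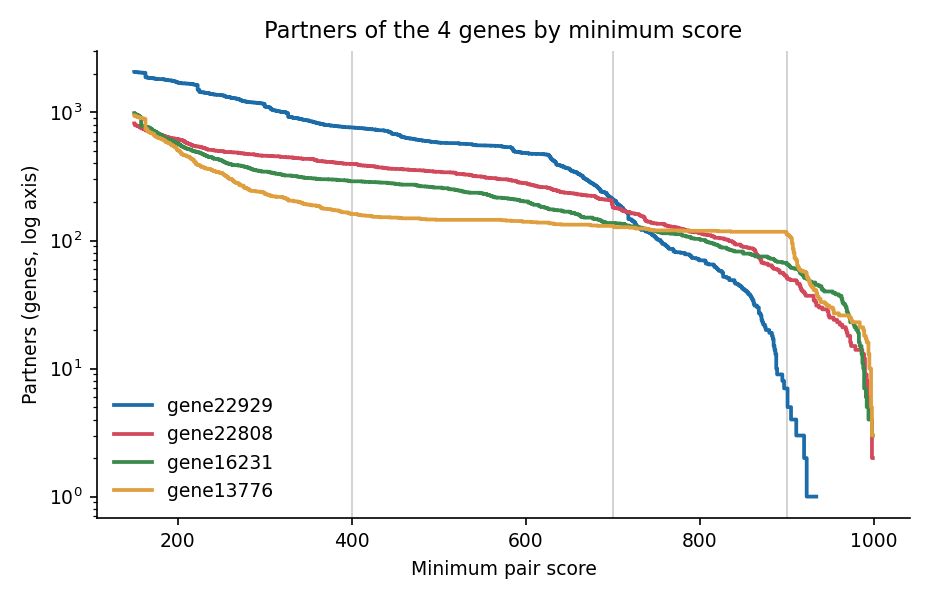
Number of partners (genes, log axis) of each of the 4 genes against the minimum pair score, with grey lines at 400, 700 and 900. gene22929 leads up to a minimum of 715 and drops to 7 partners at 900, while the curve of gene13776 is nearly flat from 161 partners at 400 to 116 at 900.

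The leading gene among the 4 changed with the minimum. gene22929 had most partners of the 4 at every minimum from 150 to 715. gene22808 led from 717 to 788, and gene13776 from 789 to 925. gene16231 led from 927 to 971. Above 971 gene13776 either led or was level with gene16231. No single order of the 4 genes therefore holds across scores.

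A high count at low scores was not enough for a high rank at 700. The genes outside the 4 with most partners at 150 were gene19299, gene31312 and gene31959. gene19299 had 1470 partners at 150, but 36 at 700 and 12 at 900. gene31312 fell from 1353 partners to 13 at 700, and gene31959 from 933 to 9, and neither had a partner at 900. Just below the 4 genes at 700 stood gene16714 and gene25682, each with 114 partners against the 130 of gene13776, and then gene2386 with 110. At the other minimums the 4 genes were not the top 4. At 900 the genes outside the 4 with most partners were gene2386 with 62, gene23694 with 58 and gene25682 with 57, all above gene22808 and gene22929. At 400 they were gene21364 with 258, gene16714 with 245 and gene25682 with 242, all above gene13776.

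The scores behind these counts had a different shape for each hub. The median score was 376 for the pairs of gene22808, 313 for gene22929, 221.5 for gene16231 and 205 for gene13776, against 212 over all pairs. The highest score of gene22929 was 934, and it had no partner from 950 to 999, while the other 3 genes each reached 999. It had 350 partners from 150 to 199, a band narrower than the others named here, and 556 from 200 to 299. The number fell to 99 from 500 to 599 and was higher again from 600 to 699, with 271 partners or 13.1%. Over all pairs the band from 600 to 699 held 2.54%.

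gene13776 had few scores in the middle range. Only 45 of its 947 partners (4.75%) scored from 400 to 899, against 13.4% of all pairs. Below this range lay most of its partners, with 435 from 150 to 199 and 276 from 200 to 299. Above it lay 86 partners from 900 to 949 and 30 from 950 to 999. The band from 800 to 899 held 3 partners. gene22808 was the most even of the 4, with between 52 and 88 partners in each band of 100 from 400 to 899, 28 from 900 to 949 and 25 from 950 to 999. gene16231 had 411 partners from 150 to 199, between 31 and 65 in each band of 100 from 400 to 899, and 40 from 950 to 999.

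**Figure D2:**
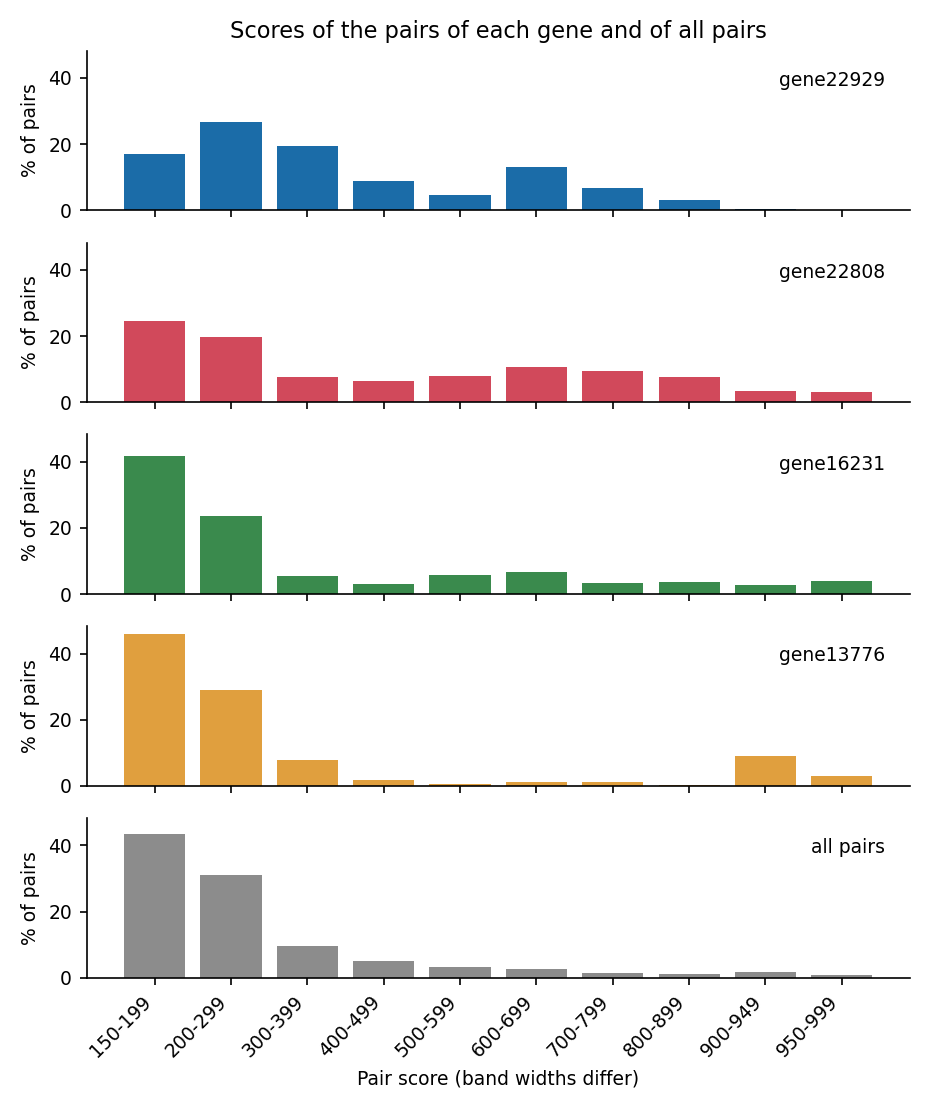
Percent of pairs in each score band for the 4 genes (coloured bars) and for all 207586 pairs (grey). The bands are 50 wide below 200 and above 899 and 100 wide between; gene13776 has 9.08% of its pairs from 900 to 949 and 0.317% from 800 to 899, and gene22929 has 13.1% from 600 to 699.

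Single scores were repeated often for 3 of the 4 genes. The score 163 was held by 148 partners of gene13776 (15.6%) and by 157 of gene22929 (7.58%), and 158 by 125 partners of gene16231 (12.7%). gene22929 also had 135 partners at exactly 223. For gene22808 no score was held by more than 21 partners. How often these single scores occur over all pairs was not counted, so they are not shown to be particular to the hubs. Over all pairs the band from 150 to 199 held 43.4%.

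Of the 6 possible pairs among the 4 genes, 5 were listed. The highest score, 998, joined gene22808 and gene13776, and 99.9% of all pairs scored lower. This partner ranked 3rd for gene22808 and 4th for gene13776 when ties share the better rank. gene22929 and gene13776 were joined at 905, a score that ranked 5th among the partners of gene22929 but 105th among those of gene13776. gene22929 and gene22808 scored 841. gene16231 was joined to gene22808 at 651 and to gene22929 at 560, and it was not paired with gene13776 at any score. At 900 or more the 4 genes thus held 2 pairs, both through gene13776, and gene16231 stood apart from the other 3.

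The top partners of each hub differed. The 5 highest partners of gene22929 were gene9237 at 934, gene26204 at 923, gene15070 at 920, gene7638 at 911 and gene13776. For gene22808 they were gene5965 and gene16780 at 999, gene26077 and gene13776 at 998 and gene29653 at 997. gene16231 had gene2386, gene28414 and gene30821 at 999, gene22591 at 998 and gene20501 at 994. None of these 5 partners of gene16231 scored over 182 with gene13776, and 4 of them were not paired with it. gene13776 had gene15967, gene22065 and gene22201 at 999, then gene8849 and gene22808 at 998. Apart from gene22808 itself, none of them was paired with gene22808 or gene16231, while all 5 were partners of gene22929, at 868, 697, 901, 706 and 841.

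Each hub's partners were then compared with the partner sets of the other 3. The pair compared is left out of both sets, and a share is given beside the share of the whole network that the other hub reaches. At 150 or more, 919 of the 946 other partners of gene13776, or 97.1%, were also partners of gene22929, which reached 57.4% of the other genes. The same share was 79.9% for gene16231 and 76.3% for gene22808. Seen from gene22929, with 2070 other partners, 44.4% were shared with gene13776, 38.1% with gene16231 and 30.2% with gene22808. Those 3 hubs reached 26.2%, 27.4% and 22.8% of the other genes. The sets of gene22929 and gene13776 were thus nearly nested.

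The shared percentage of every set was lower at 700 than at 150, and so was the share of the network that each hub reached. The fall was not steady for every set. Of the other partners of gene22929, 14.9% were shared with gene13776 at 400 and 29.4% at 700. The share of the network that gene13776 reached rose over this step from 4.88% to 5.56%. At 400 gene13776 shared 71.25% of its other partners with gene22929, which reached 23.2% of the network. For every pair of hubs at 700, the shared percentage still lay above the share of the network that the other hub reached. At 700 or more gene22929 and gene13776 shared 62 partners, which is 48.1% of those of gene13776 and 29.4% of those of gene22929. These hubs reached 9.09% and 5.56% of the network there. The next largest overlap was between gene22929 and gene22808, with 40 shared partners (19.0% and 20.9% of the respective sets). The shares of the network reached (the reaches) were 9.09% and 8.23%. gene22808 and gene16231 shared 30, which is 15.6% and 21.9%, with reaches of 8.28% and 5.91%. gene22808 shared 20 with gene13776 (10.5% and 15.5%, reaches 8.23% and 5.56%). gene16231 shared 19 with gene22929 (13.9% and 8.96%, reaches 5.91% and 9.14%). It shared 15 with gene13776 (10.9% and 11.5%, reaches 5.91% and 5.60%). The last pair, which is not joined itself, had 377 shared partners at 150 (38.2% and 39.8%, reaches 27.4% and 26.3%).

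At 900 or more overlaps were small in number. gene22808 shared 9 partners with gene16231 (17.0% and 13.4% of the sets, reaches 3.73% and 4.72%). It shared 9 with gene13776 (17.3% and 7.83%, reaches 3.66% and 8.10%). gene16231 and gene13776 shared 6 (8.96% and 5.17%, reaches 4.72% and 8.17%), so their overlap was near the share over the whole network. gene22929 and gene13776 shared 3. gene22929 shared 1 each with gene22808 and gene16231. With 7 partners in all, gene22929 gives no useful share there.

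**Figure D3:**
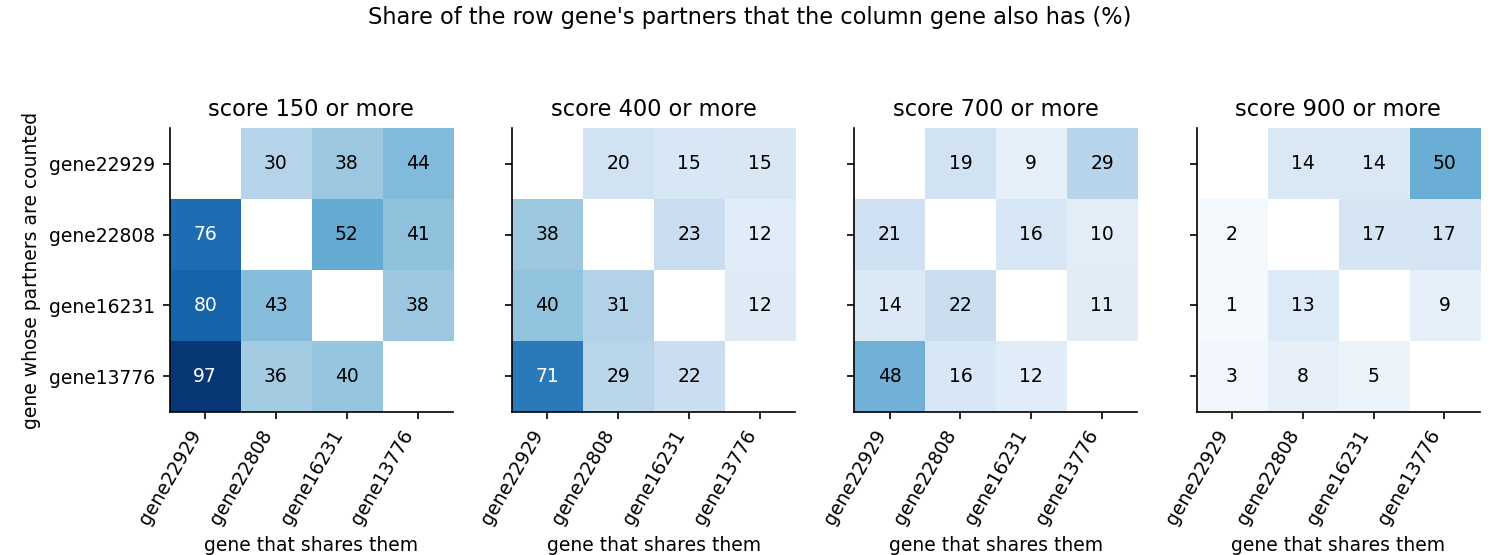
Percent of the partners of the row gene that are also partners of the column gene, at minimum scores of 150, 400, 700 and 900, with the pair compared left out. The cell for gene13776 in the column of gene22929 goes from 97.1% at 150 to 48.1% at 700 and 2.61% at 900. At these minimums gene22929 reached 57.4%, 9.09% and 0.423% of the network.

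Counted over the genes outside the 4, 2409 of 3602 (66.9%) were paired with at least 1 hub at 150. Of these, 862 were paired with 1 hub, 882 with 2, 469 with 3 and 196 with all 4. At 700 or more 520 of 2318 genes with a partner (22.4%) were paired with a hub: 404 with 1, 96 with 2, 11 with 3 and 9 with all 4. At 900 or more it was 214 of 1418 (15.1%): 192 with 1, 19 with 2 and 3 with 3. No gene was paired with all 4 there. The share of partners that belonged to 1 hub alone was 2.01% for gene13776 at 150, 45.3% at 700 and 86.8% at 900. Its share was the lowest of the 4 at 150 and 700 and the highest at 900. For gene16231 it was 12.7%, 71.5% and 80.6%, and for gene22808 15.0%, 67.9% and 69.2%. For gene22929 it was 28.8%, 56.7% and 50.0%, the last from 6 partners outside the 4. These shares also depend on how many partners the other hubs kept, and gene22929 kept 7 at 900.

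The 9 genes paired with all 4 hubs at 700 or more, named after their values were seen, were gene5965, gene6136, gene6647, gene14565, gene23158, gene24805, gene25181, gene28245 and gene30724. gene25181 had the highest scores as a whole, with 826 for gene22929, 941 for gene22808, 989 for gene16231 and 994 for gene13776. gene5965 scored 756, 999, 719 and 988 with the hubs in the same order. With gene22929 the 9 genes scored from 705 to 826, and with gene13776 from 907 to 994. Among these 9 genes 16 of the 36 possible pairs were present at 700 or more. The 3 genes paired with 3 hubs at 900 or more were gene23158 and gene25181, which lacked only gene22929 there, and gene9237. gene9237 scored 992 with both gene16231 and gene13776 and 934 with gene22929, and was not paired with gene22808.

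gene22929 and gene13776 were compared further because their sets overlapped most. Over their 919 shared partners, the median score was 471 with gene22929 and 204 with gene13776. The score with gene22929 was the higher in 709 of them, the score with gene13776 in 127, and the scores were equal in 83. Of these 83, 81 lay under 400 and 21 were the score 163 in both. For each of the other 5 pairs of hubs, at most 6 shared partners had equal scores. Pearson's r between the scores was 0.31 and Spearman's rho 0.46. For the other 5 pairs r ran from 0.16 to 0.24 and rho from 0.096 to 0.30, over 337 to 789 shared partners. These are descriptions over partners that all come from 1 list, with scores cut off below 150.

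Partners of each hub in a given score band were then looked up among the partners of the other. With 700 as the minimum for both hubs, the overlap is the same 62 genes from either side. Of the 115 other partners of gene13776 at 900 or more, 106 were partners of gene22929, with a median score of 697, and 52 (45.2%) reached 700 with it. Of the 205 partners of gene22929 from 700 to 899, 185 were partners of gene13776, but their median score with it was 323, and 59 (28.8%) reached 700. In the same band gene13776 had 14 partners. Of these, 12 were partners of gene22929, with a median score of 770.5, and 10 (71.4%) reached 700 with it. Among the 786 weak partners of gene13776, those under 400, the share paired with gene22929 was as high, at 98.0%, with a median score of 444.5.

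**Figure D4:**
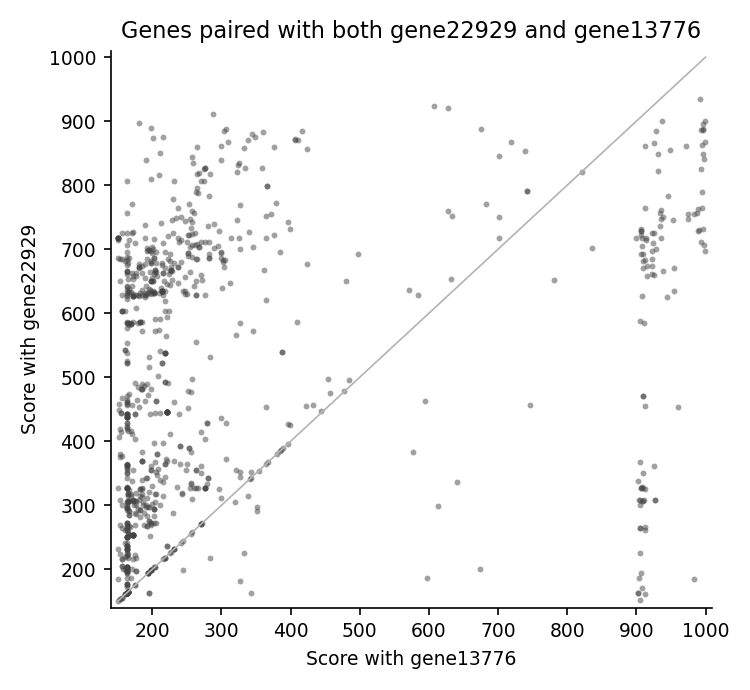
Score with gene22929 against score with gene13776 for the 919 genes paired with both; each point is 1 gene and the line marks equal scores. Points gather on the left (scores under 400 with gene13776), at 900 or more on the right, and, for 83 genes, on the line.

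At 700 or more the partners of each hub were linked to each other less often than those of most genes with at least 20 partners. They were linked more often than pairs in the whole network. Of all possible pairs among the 212 partners of gene22929 at 700 or more, 749 (3.35%) were present. This was the lowest share among the 303 genes with at least 20 partners, whose median was 29.3%. gene22808 followed as second lowest, with 677 links or 3.69%. gene13776 had 857 links (10.2%, 8th lowest) and gene16231 1051 (11.3%, 16th lowest). In the whole network at this score, 0.401% of the possible pairs among genes with a partner were present.

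Genes with the next most partners had shares near those of gene16231 and gene13776. The share was 11.0% for gene16714, 13.0% for gene25682, 14.3% for gene2386 and 13.8% for gene28414, with 105 to 114 partners each. gene22929 and gene22808 thus stood below genes of the nearest size, although no gene outside the 4 had as many partners, so a like-for-like comparison could not be made. At 900 or more gene22808 was lowest of 125 genes, at 4.64%, against a median of 44.6%. gene13776 was at 9.97% and gene16231 at 10.8%, 3rd and 5th lowest.

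**Figure D5:**
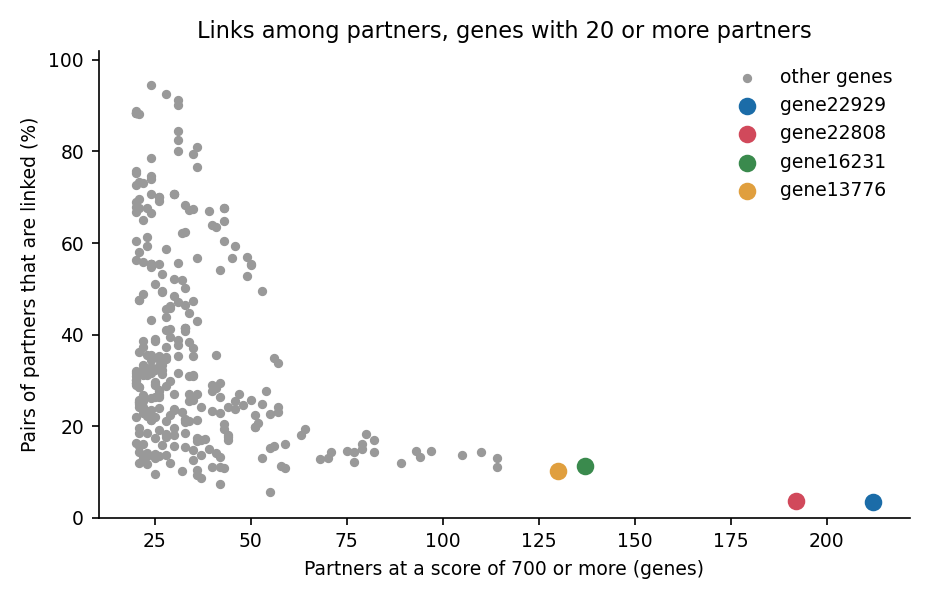
Percent of the pairs of a gene's partners that are themselves linked, against the number of partners, for the 303 genes with 20 or more partners at a score of 700 or more. The 4 hubs (coloured) lie at the right; gene22929 (3.35%) and gene22808 (3.69%) lie lowest, and gene16231 (11.3%) and gene13776 (10.2%) near the genes with 105 to 114 partners.

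Once a hub itself was set aside, its partners at 700 or more fell into separate groups to different degrees. All 137 partners of gene16231 stayed joined to each other, directly or through other partners. For gene13776, 117 of 130 did, in the largest of 11 groups. The 212 partners of gene22929 fell into 40 groups, the largest of 172 genes, and 38 partners were linked to no other partner. The 192 partners of gene22808 fell into 30 groups, the largest of 161, with 28 single genes. Partners of gene22808 had a median of 11 partners of their own, against 15 for gene22929, 22 for gene16231 and 24 for gene13776. The median over all genes with a partner at 700 or more was 4, below that of each hub's partners.

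Partners that belonged to 1 hub alone were linked within their own set more than across sets. Within the 98 partners at 700 that only gene16231 had, 7.17% of possible pairs were present. It was 3.51% within the 58 of gene13776, 1.71% within the 129 of gene22808 and 1.11% within the 119 of gene22929. Between the sets of different hubs the share ran from 0.171% (gene22929 with gene16231) to 0.669% (gene16231 with gene13776). Each of these sets was formed by a shared partner, and no reference sets were made.

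Which hubs lay in the innermost core, the most tightly joined genes of the network, changed with the minimum score. At 150 the core of 368 genes held gene22929 and gene16231, and at 400 the core of 69 genes held gene22929, gene22808 and gene16231. gene13776 was in neither. At 700, with 32 genes, and at 900, with 24, gene13776 was the only one of the 4 in the core. At 900 the core genes each had 20 or more partners within it, and gene13776 was paired with all 23 others, at scores of 953 to 999. Outside this core it had the remaining 93 of its 116 partners, while the core's other genes had 21 to 41 partners each. gene22929 was not in the core, yet it was paired with all 24 genes of this core, at a median score of 763.5, and with 21 of them at 700 or more. gene22808 was paired with 7 core genes and gene16231 with 5, of which 2 and 1 reached 700. Over the whole network gene22929 reached 57.4% of the other genes at 150 and 9.14% at 700. The reaches were 22.8% and 8.28% for gene22808, and 27.4% and 5.91% for gene16231. The core genes were thus joined to gene22929 more often than the network as a whole. For gene22808 and gene16231 the core counts lay near these reaches.

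This core at 900 also contained the genes most like gene13776. That follows in part from the make-up of the core: gene13776 was paired with all of it, so any core gene shared many partners with it. Likeness was the number of shared partners at 700 or more divided by the number either gene had. It was ranked over the 299 genes outside the 4 with at least 20 partners. For gene13776 it was highest, at 25.4% each, for gene1962, gene15967 and gene25836. Each had 43 partners, of which 35 were shared. These 3 genes were core members and had 40 partners in common, of 42 that any of them had outside the 3. For gene22929 the most alike outside the 4 were gene8966 at 12.4% and gene22065 and gene22201 at 12.0%. They had 42, 49 and 49 partners against 212, and such a difference in size limits this measure. Of their own partners they shared 66.7%, 57.1% and 57.1% with gene22929. Among the 4, gene13776 had a likeness of 22.3% to gene22929, with the pair left out. It had 130 partners and shared 48.1% of its other partners with gene22929.

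The closest match of any hub was found for gene16231. gene11336 shared 82 of its own 93 partners with gene16231 (88.2%, or 59.9% of those of gene16231), a likeness of 55.4%, and the pair scored 969. Next came gene23694 at 35.3% and gene28414 at 29.4%. For gene22808 the most alike was gene16714 at 24.4%, with 60 shared partners and a pair score of 958, then gene30724 at 17.6% and gene26077 at 14.6%. All but 1 of these 12 genes were themselves partners of their hub at 700 or more. The exception was gene22065, which scored 697 with gene22929.

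Leaving out a hub showed how many genes hung on it. At 700 or more the network had 55 separate parts, with 2187 genes in the largest. Without gene22929 it had 70 parts, and 12 genes had no partner left. Without gene22808 it had 67 parts, and 8 genes had none left. Without gene13776 there were 56 parts, and without gene16231 there were 55 and no gene was stranded. At 900 or more the order changed: leaving out gene22808 stranded 8 genes, gene13776 5, gene16231 2 and gene22929 1. Without all 4 hubs the largest part at 700 still held 2147 genes.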

How the data were processed

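RNA of the 6 muscles was freed of ribosomal RNA and sequenced, per the labels' protocols. The reads went through Trim Galore, TopHat2 2.0.14 and Cufflinks, as the submitters' processing notes list them, and the genome build is not given in the sources used here. The deposited pair table has no header; its last column was read as a score per gene pair. How the authors chose its genes, matched them to cattle proteins and obtained each score is not given in the sources used here. The form of the identifiers and scores resembles the STRING database. Read depth is unknown here.

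From this table, all pairs holding 1 of the 4 genes were taken, and partners, overlaps, links among partners, cores and separate parts were counted at minimum scores of 150, 400, 700 and 900 (Python 3.11.15, pandas 2.3.3, numpy 2.4.6, networkx 3.6.1, scipy 1.17.1). The counting was checked on simulated data. No test was made, since the genes were chosen on this table. The members and the rules for named genes (the 5 highest partners, the 3 other genes with most partners at each minimum, the 3 most alike genes) were chosen with earlier results of these data known. The gene table of assembly ARS-UCD2.0 matched 0 identifiers. Alternatives were other minimum scores, proteins in place of genes, and genes matched 1 to 1 with proteins. The transcript lists of the series were not used here.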

Additional observations from a re-analysis of the deposited data

How the results depend on the processing

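No paired analysis was possible because the pair table names neither animals nor replicates; a comparison of the species could not be run either. For the 6 results that are counts, 28 alternatives were computed, of which 11 lay within 1.5 times of the reported count and 17 did not. All 17 came from a higher minimum score, which can only lower a count of partners or pairs. At 400, 700 and 900 the partners of gene22929 numbered 764, 212 and 7, those of gene22808 396, 192 and 53, those of gene16231 290, 137 and 67, and those of gene13776 161, 130 and 116. Partners shared by all 4 genes fell from 196 to 22, 9 and 0. Pairs among the 4 genes, 5 at 150 and at 400, fell to 3 at 700 and 2 at 900. The median over the 4 genes of the share of linked partner pairs was 12.8% at 150, 8.33% at 400, 6.96% at 700, 10.4% at 900 and 12.6% with only genes matched 1 to 1. The values at 900 and with 1 to 1 matches lie within 1.5 times of that at 150, and the other 2 do not. The value at 900 includes the 7 partners of gene22929. Counting partner proteins gave 2048, 807, 974 and 935 partners for gene22929, gene22808, gene16231 and gene13776, and 1 to 1 matches gave 1998, 784, 948 and 906.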
